A study of Mus musculus with 20 samples.

Results

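The pyruvate dehydrogenase complex and the enzymes that switch it on and off were followed in mouse melanomas treated with propafenone, with an antibody to PD-1, or with both. The 10 genes were taken by their symbols from the deposited count and transcripts-per-million (TPM) matrices, out of 32285 genes in all, and each symbol had 1 row. They are the kinases Pdk1, Pdk2, Pdk3 and Pdk4, the phosphatase genes Pdp1, Pdp2 and Pdpr, and the complex genes Pdha1, Pdhb and Dlat. All 10 passed the filter on low counts that left 15875 genes for testing. The members were chosen by symbol, and the set was selected on a measured value in so far as Pdk3 had been seen among the genes lower in the combination against IgG. For that reason values of that comparison are given as a description without a test. The other comparisons share some of the same tumours with it, so they are not independent of that selection.

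B16F10, a mouse melanoma cell line, was implanted in immunocompetent C57BL/6 mice of wild-type genotype, and treatment began when tumours reached a volume of about 100 mm3. One group received control IgG by intraperitoneal injection, another propafenone, another the anti-PD-1 antibody, and the last both agents, called the combination here. Propafenone is given against cardiac arrhythmia and acts on sodium channels, and PD-1 is an inhibitory receptor of T cells. Tumours were taken on day 16 and RNA was sequenced from 5 tumours per group, 20 in all.

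The complex sits in the mitochondrial matrix and turns pyruvate from glycolysis into acetyl-CoA, the entry point of the tricarboxylic acid (TCA) cycle. Pdha1 and Pdhb encode the alpha and beta subunits of its first enzyme (E1), and Dlat encodes the acetyltransferase core (E2). The PDK kinases phosphorylate the E1 alpha subunit and switch the complex off, while the PDP phosphatases remove the phosphate and switch it on again. Pdp1 and Pdp2 encode catalytic phosphatase subunits, and Pdpr encodes the regulatory subunit. Pdk1 is a textbook target of the hypoxia-inducible factor HIF-1, and Pdk4 is induced by fasting and is abundant in skeletal muscle and heart.

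Library totals lay between 55985437 and 64514815 expected counts. All 10 melanoma marker genes were detected, and their summed level lay between 13590 and 20109 TPM in the 20 tumours, with group medians of 15731 TPM (IgG), 15532 (propafenone), 19020 (anti-PD-1) and 18956 (combination). With anti-PD-1 over both backgrounds, 2 of these 10 were called higher by edgeR, as were 3.92% of all genes tested. So were 15 of 18 skeletal muscle, 9 of 10 fibroblast, 7 of 11 macrophage, 3 of 8 endothelial and 1 of 7 adipocyte markers tested. Of 6 red blood cell markers 1 was called lower, as were 4.42% of all genes. Of 7 keratinocyte and 6 T cell markers 0 were called. The part of these cell types in the results that follow was not tested. Summed marker levels of cell types other than melanoma also differed between groups. The summed level of 18 skeletal muscle markers had a median of 16.9 TPM with IgG, 97.4 with propafenone, 278 with anti-PD-1 and 664 with the combination, and the summed level of 11 macrophage markers had medians of 71.4, 193, 273 and 549 TPM in the same order. The summed level of 10 fibroblast markers had medians of 100.5, 112, 185 and 278 TPM, and that of 6 red blood cell markers 2878, 4039, 1494 and 1141 TPM, in the same order. Of all libraries, 5 (2 IgG, 2 propafenone, 1 anti-PD-1) held over 1000 CPM (counts-per-million units, scaled by TMM) of the haemoglobin gene Hbb-bs. In bulk tumour RNA, fewer cells of a type and less RNA per cell cannot be told apart.

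The 250 bases before the RefSeq start of each gene (GRCm38.p6, taken from RefSeq, 9 of 10 genes matched) were searched on both strands for ACGTG and GCGTG, the letters of the core hypoxia response element. The windows shown are those of the 3 regulators that were called lower in the anti-PD-1 tumours described next, Pdk1, Pdk3 and Pdpr, with Pdk2 as a kinase that was not called. In GRCm38 the genes themselves run over chr2:71873224-71903858 (Pdk1, ENSMUSG00000006494), chrX:93764607-93832201 (Pdk3, ENSMUSG00000035232), chr8:111094630-111137074 (Pdpr, ENSMUSG00000033624) and chr11:95026258-95041354 (Pdk2, ENSMUSG00000038967), so that the RefSeq starts of Pdk3 and Pdpr lie inside the annotated gene. The windows are printed 5′ to 3′ on the strand of the gene, and capitals mark matches to either word or to its reverse complement. The Pdk1 window is chr2:71872974-71873223 (plus strand), the Pdk3 window chrX:93832151-93832400 (minus strand), the Pdpr window chr8:111094495-111094744 (plus strand) and the Pdk2 window chr11:95041372-95041621 (minus strand).
Pdk1: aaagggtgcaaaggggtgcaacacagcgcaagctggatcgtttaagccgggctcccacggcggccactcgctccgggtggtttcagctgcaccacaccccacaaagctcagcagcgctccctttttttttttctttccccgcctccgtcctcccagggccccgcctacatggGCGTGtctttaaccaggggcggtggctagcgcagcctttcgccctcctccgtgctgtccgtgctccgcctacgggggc
Pdk3: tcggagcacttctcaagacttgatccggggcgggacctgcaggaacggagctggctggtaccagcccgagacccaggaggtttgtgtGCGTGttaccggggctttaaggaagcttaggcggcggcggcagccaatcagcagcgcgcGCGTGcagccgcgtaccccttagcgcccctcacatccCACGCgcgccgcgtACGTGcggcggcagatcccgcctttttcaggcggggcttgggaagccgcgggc
Pdpr: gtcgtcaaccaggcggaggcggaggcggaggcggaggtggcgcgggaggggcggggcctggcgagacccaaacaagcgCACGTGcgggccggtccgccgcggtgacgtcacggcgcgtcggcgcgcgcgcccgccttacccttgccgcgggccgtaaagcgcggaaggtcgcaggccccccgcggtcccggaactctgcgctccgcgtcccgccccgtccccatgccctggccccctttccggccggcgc
Pdk2: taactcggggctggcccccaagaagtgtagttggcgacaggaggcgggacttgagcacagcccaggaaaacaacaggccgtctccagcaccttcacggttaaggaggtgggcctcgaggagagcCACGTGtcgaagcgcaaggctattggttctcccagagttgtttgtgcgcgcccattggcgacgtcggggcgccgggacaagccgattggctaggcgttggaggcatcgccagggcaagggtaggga
Pdk1 held 1 match, to GCGTG. Pdk3 held 4 matches, 1 to ACGTG and 3 to GCGTG. Pdpr and Pdk2 each held 2, both from a single palindromic CACGTG, which counts once on each strand. Among the other genes, Pdha1 held 3 matches, Pdp2 and Pdhb 2, Pdk4 1 and Dlat 0. Of 32851 windows of the same length, 38.6% held at least 1 match, 16.7% held 2 or more, 6.58% held 3 or more and 2.58% held 4 or more. Those windows were not matched for their share of G and C, and both words hold a CG. The share was 64.0% in the Pdk1 window, 67.6% in Pdk3, 78.4% in Pdpr and 62.4% in Pdk2. Whether the 10 genes hold more matches than windows of like composition was not tested. A match describes the letters in the window and nothing about binding.

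By transcript level the genes fell into an abundant and a scarce class. Over the 20 tumours the mean was 185 TPM for Pdhb, 130 for Pdha1, 105 for Pdk3, 89.5 for Dlat and 81.8 for Pdk1. The scarce class held Pdp2 at 7.03, Pdpr at 6.26, Pdk2 at 5.35, Pdp1 at 3.30 and Pdk4 at 0.834 TPM. The lowest tumour of every abundant gene stood above the highest tumour of every scarce gene. Within the abundant class Pdk3, Dlat and Pdk1 overlapped across tumours (77.3 to 146, 66.7 to 106 and 56.9 to 111 TPM). Pdk4 was the most variable, spanning 27.2-fold between its lowest and highest tumour on 11 to 300 counts.

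**Figure D1:**
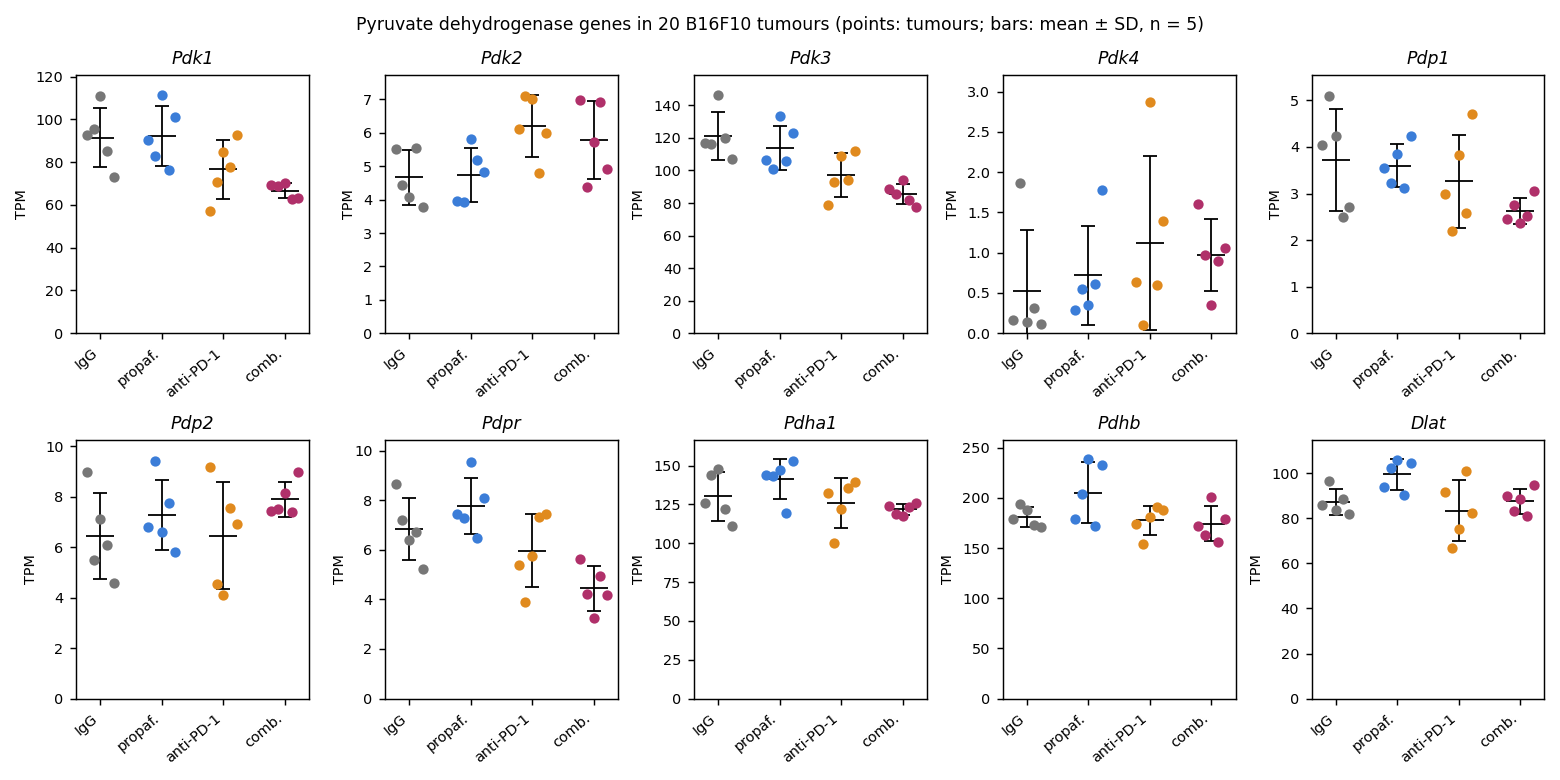
Level of each of the 10 genes in TPM (vertical axis, from 0) in the 5 tumours of each group; points are tumours and bars are the group mean ± SD. Pdk1, Pdk3 and Pdpr have their lowest group mean in the combination (66.7, 85.5 and 4.45 TPM), while Pdk4 is scattered within every group.

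Pdk1 and Pdk3, the abundant kinases, were lower in tumours that had received anti-PD-1. For Pdk1, replicates 1 to 5 stood at 223, 234, 267, 219 and 203 CPM with IgG and at 213, 192, 267, 185 and 245 CPM with propafenone. They stood at 135, 202, 216, 180.0 and 224 CPM with anti-PD-1 and at 165, 161, 167, 145 and 143 CPM with the combination. All 5 combination tumours lay below all 10 tumours without anti-PD-1, and the anti-PD-1 tumours overlapped both those groups.

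Pdk3 replicates stood at 117, 118, 147, 128 and 124 CPM with IgG and at 104, 98.0, 134, 106 and 125 CPM with propafenone. With anti-PD-1 they stood at 77.7, 109, 115, 90.7 and 113 CPM, and with the combination at 87.5, 83.6, 92.0, 78.8 and 72.5 CPM. By CPM every tumour given anti-PD-1, alone or in the combination, was below every IgG tumour. The propafenone tumours spanned the gap between them, and the combination tumours lay below all 5 of these as well. By TPM the anti-PD-1 and IgG groups overlapped, with anti-PD-1 3 and anti-PD-1 5 (109 and 112 TPM) above IgG 5 (107 TPM).

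Over both backgrounds, 10 tumours with anti-PD-1 were set against 10 without, and 4 of the 10 genes were called lower and 0 higher (edgeR quasi-likelihood test, adjusted p under 0.05 over all genes), where 8.35% of all genes tested were called in either direction and 4.42% lower and 3.92% higher. Pdk1 fell by 0.38 ± 0.0851 on the log2 scale (SE; adjusted p = 0.0136 by edgeR). Pdk3 fell by 0.39 ± 0.0768 (adjusted p = 0.00842 by edgeR). Both calls were kept in all 20 fits that left out 1 tumour, with adjusted p of at most 0.0436 for Pdk1 and 0.0272 for Pdk3. Pdk3 had been seen lower in the combination against IgG, and those tumours enter this comparison in the same direction. The p-value and calls of Pdk3, and the count of 4 genes, are therefore not independent of that selection.

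Pdk2, a widely expressed kinase, went the other way without passing the test. Its CPM values were 5.86, 4.74, 4.36, 6.26 and 4.64 with IgG, 4.10, 4.06, 6.16, 5.54 and 5.13 with propafenone, 6.26, 8.93, 7.61, 4.93 and 6.43 with anti-PD-1, and 7.19, 4.56, 5.97, 6.98 and 4.75 with the combination. The 4 groups overlapped. The estimate for anti-PD-1 over both backgrounds was 0.32 ± 0.127 (log2, SE; adjusted p = 0.119 by edgeR).

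Pdk4 was the scarcest of the 10 genes, and its groups overlapped. Its CPM values were 0.278, 3.13, 0.232, 0.563 and 0.239 with IgG, 0.477, 0.897, 0.585, 1.02 and 2.998 with propafenone, 1.04, 0.211, 4.99, 0.977 and 2.32 with anti-PD-1, and 2.62, 1.55, 0.523, 1.39 and 1.65 with the combination. A single tumour was far above the rest in the IgG and in the propafenone group. The estimate for anti-PD-1 was 0.73 ± 0.549 (log2, SE; adjusted p = 0.426 by edgeR). With the muscle marker score as a covariate it was -0.88 (adjusted p = 0.217 by edgeR), and with the macrophage marker score -0.79 (adjusted p = 0.711 by edgeR).

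The kinase pool was made almost wholly of Pdk3 and Pdk1. Per length, Pdk3 made up 55.8% ± 1.98 of the summed kinase TPM with IgG (SD, n = 5), 53.9% ± 1.40 with propafenone, 53.8% ± 1.002 with anti-PD-1 and 53.8% ± 0.901 with the combination. Pdk1 made up 41.8% ± 1.78, 43.5% ± 1.72, 42.1% ± 1.65 and 42.0% ± 0.982. Pdk2 made up 2.17% ± 0.438, 2.25% ± 0.313, 3.49% ± 0.733 and 3.64% ± 0.719 in the same order. The group means of the shares of the abundant pair lay close together, and the summed level was 218 ± 27.8 TPM with IgG, 212 ± 27.9 with propafenone, 181 ± 27.9 with anti-PD-1 and 159 ± 9.84 with the combination. By CPM, which does not correct for length, Pdk1 stood first with 63.3% to 64.7% and Pdk3 second with 33.4% to 35.0% of the sum.

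**Figure D2:**
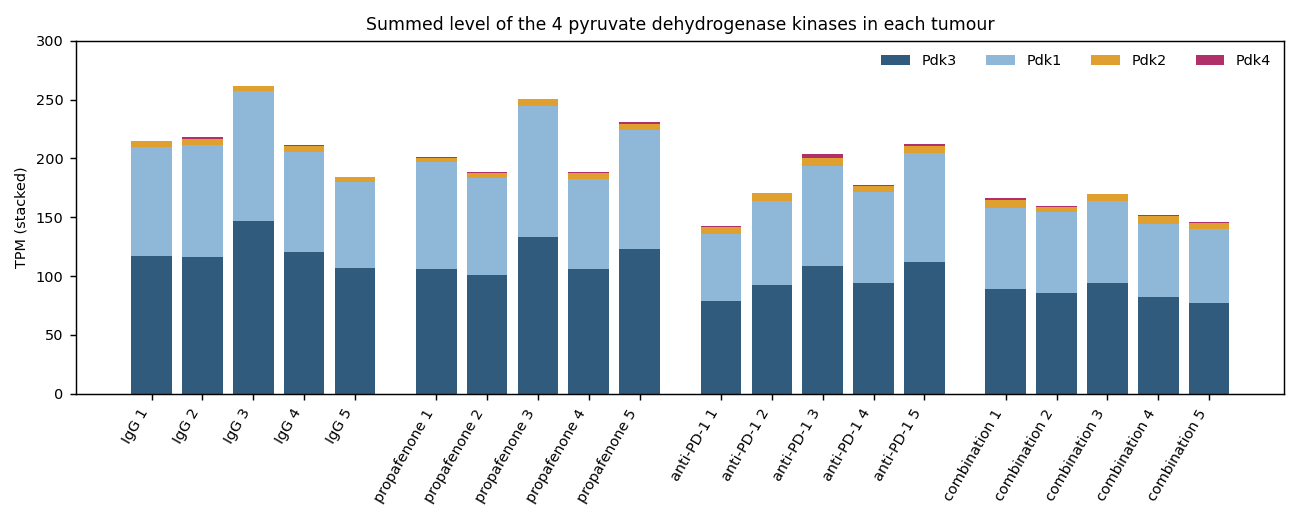
Stacked TPM of Pdk3, Pdk1, Pdk2 and Pdk4 (vertical axis, from 0) in each of the 20 tumours. The stacks reach 184 to 261 TPM with IgG and 146 to 170.0 TPM with the combination, and Pdk3 and Pdk1 fill nearly all of each stack.

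Pdpr, the regulatory subunit of the phosphatase, fell furthest among the genes called. Its CPM values were 20.1, 17.0, 15.0, 16.6 and 14.1 with IgG, 17.1, 16.3, 22.1, 15.1 and 19.2 with propafenone, 12.4, 10.7, 14.2, 16.4 and 17.5 with anti-PD-1, and 13.0, 9.55, 7.43, 11.1 and 9.08 with the combination. By CPM all 5 combination tumours lay below all 10 tumours without anti-PD-1, and the anti-PD-1 tumours overlapped all other groups. By TPM combination 1 (5.65) stood above IgG 5 (5.24). Anti-PD-1 over both backgrounds gave an estimate of -0.53 ± 0.11 (log2, SE; adjusted p = 0.00991 by edgeR), called in all 20 fits that left out 1 tumour (adjusted p of at most 0.0303). An uncharacterised gene on the opposite strand, 9430091E24Rik, overlaps Pdpr and lay between 1.51 and 3.27 TPM, with an estimate of -0.08 (adjusted p = 0.81 by edgeR); the strand setting of the counting is not given in the sources used here.

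The catalytic phosphatases did not pass the test. Pdp1 replicates stood at 6.18, 9.05, 6.37, 4.54 and 4.70 CPM with IgG, 5.69, 5.01, 7.05, 5.10 and 8.59 with propafenone, 5.58, 4.40, 6.999, 4.96 and 7.53 with anti-PD-1, and 4.803, 5.35, 4.61, 4.82 and 5.70 with the combination. The combination tumours were the tightest group, inside the ranges of the IgG and anti-PD-1 tumours. Pdp1 lay between 2.21 and 5.10 TPM over the 20 tumours and its estimate for anti-PD-1 was -0.19 ± 0.14 (log2, SE; adjusted p = 0.418 by edgeR). Pdp2 replicates stood at 24.2, 15.0, 19.3, 17.4 and 14.2 CPM with IgG, 18.002, 24.6, 17.9, 21.0 and 15.9 with propafenone, 24.5, 14.5, 11.7, 19.7 and 18.8 with anti-PD-1, and 19.7, 19.8, 21.5, 19.2 and 22.8 with the combination. All 4 groups overlapped. Pdp2 lay between 4.10 and 9.41 TPM and its estimate was 0.03 ± 0.121 (adjusted p = 0.903 by edgeR). Pdp2 was the larger of the pair in the mean of every group, at 63.5% ± 7.41 of their summed TPM with IgG, 66.5% ± 6.59 with propafenone, 65.7% ± 10.1 with anti-PD-1 and 75.0% ± 1.56 with the combination (SD, n = 5). The ratio of summed kinase TPM to summed Pdp1 and Pdp2 TPM was 22.01 ± 3.59, 19.7 ± 3.79, 19.7 ± 5.88 and 15.2 ± 1.81 in the same order. Combination tumours ranged from 12.2 to 16.8 and IgG tumours from 16.5 to 25.3, so that those groups overlapped in this ratio.

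Among the complex genes only Pdha1 was called, and narrowly. Its CPM values were 169, 196, 199.6, 174 and 172 with IgG, 189.9, 187, 199, 161 and 209 with propafenone, 176, 158, 173, 176 and 189 with anti-PD-1, and 164, 156, 155, 159 and 159 with the combination. By CPM the combination tumours lay below every IgG tumour and overlapped the propafenone group through its replicate 4. By TPM the combination tumours (117 to 126) stood above IgG 5 (111). For anti-PD-1 over both backgrounds Pdha1 fell by 0.16 ± 0.0483 on the log2 scale (SE; adjusted p = 0.0473 by edgeR), and the call was kept in 2 of 20 fits that left out 1 tumour (adjusted p 0.0118 to 0.162). Under other tools, scalings, filters and covariates Pdha1 was called in 3 of 13 settings. The estimate of Pdha1 was -0.06 ± 0.0683 for anti-PD-1 alone against IgG and -0.25 ± 0.0684 for the combination against propafenone. Map3k15, on the opposite strand over Pdha1, had 9.05 to 12.1 TPM and an estimate for anti-PD-1 over both backgrounds of -0.04 (adjusted p = 0.667 by edgeR).

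Dlat and Pdhb had estimates of the same size that missed the threshold. Dlat replicates stood at 164, 186, 159, 179.5 and 179.9 CPM with IgG, 174, 187, 201, 171 and 201 with propafenone, 172, 149, 149.8, 184 and 156 with anti-PD-1, and 167, 152, 164, 148 and 168 with the combination. By CPM the combination tumours lay below every propafenone tumour and overlapped the IgG group. By TPM combination 5 (94.8) stood above propafenone 1 (93.8) and propafenone 4 (90.6). Dlat lay between 66.7 and 106 TPM, with an estimate of -0.16 ± 0.0503 (adjusted p = 0.0513 by edgeR). Pdhb replicates stood at 128, 140.0, 135, 132 and 141 CPM with IgG, 126, 142, 172, 124 and 169.5 with propafenone, 124, 129.8, 137, 132 and 136 with anti-PD-1, and 121, 115, 140.4, 108 and 120.4 with the combination. Propafenone 3 and propafenone 5 stood above all other tumours. Pdhb lay between 154 and 239 TPM, with an estimate of -0.16 ± 0.062 (adjusted p = 0.114 by edgeR). The ratio of Pdha1 to Pdhb TPM, the E1 subunits that pair in the enzyme, had means of 0.717 (IgG), 0.696 (propafenone), 0.707 (anti-PD-1) and 0.705 (combination). The ratio of summed kinases to Pdha1, their substrate, was 1.68 ± 0.0995, 1.497 ± 0.152, 1.46 ± 0.264 and 1.31 ± 0.11 in that order (SD, n = 5).

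**Figure D3:**
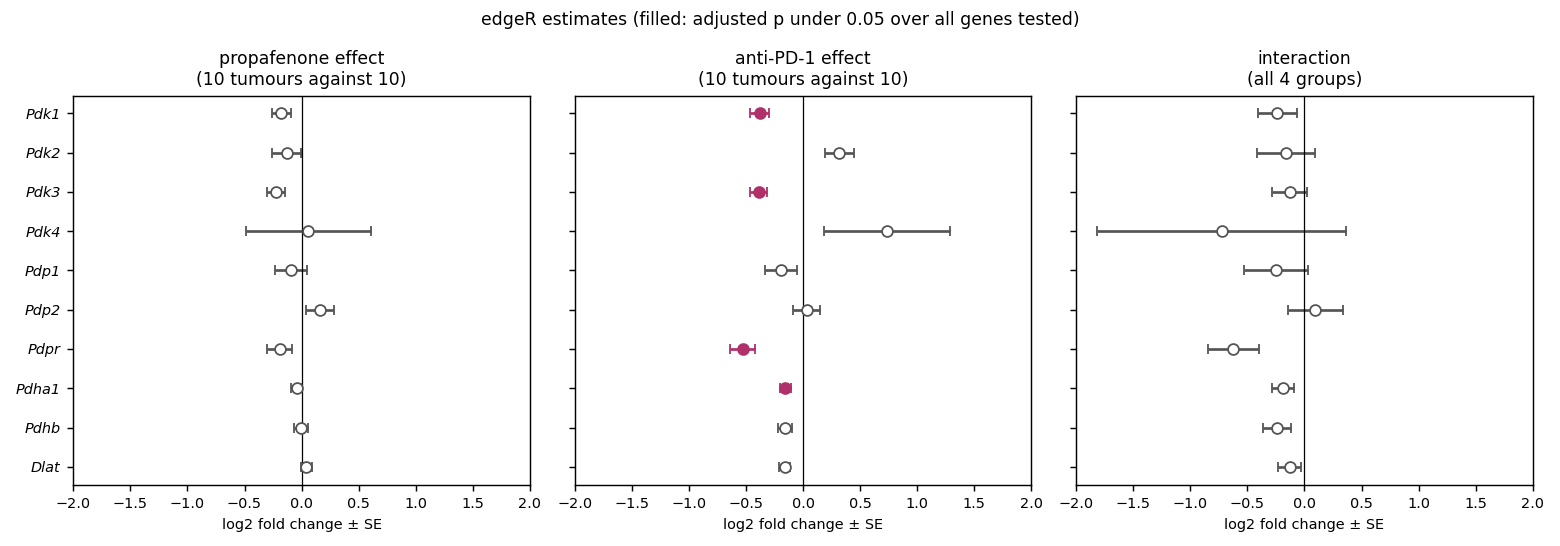
Estimated log2 fold change ± SE of each gene (horizontal axis) for the propafenone effect and the anti-PD-1 effect, each over 10 tumours against 10, and for their interaction; filled points have an adjusted p under 0.05. Filled points appear in the anti-PD-1 panel alone, for Pdk1, Pdk3, Pdpr and Pdha1.

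Adding anti-PD-1 to propafenone was followed by lower levels of Pdk1, Pdk3, Pdpr and Pdha1. In the combination against propafenone, 4 of the 10 genes were called lower, where 3.88% of all genes were called in either direction and 2.21% lower. Pdpr fell by 0.84 ± 0.157 on the log2 scale (adjusted p = 0.0211 by edgeR), Pdk1 by 0.50 ± 0.121 (adjusted p = 0.0325) and Pdk3 by 0.45 ± 0.109 (adjusted p = 0.0312). Pdha1 fell by 0.25 ± 0.0684 (adjusted p = 0.0443 by edgeR). The estimates of Pdhb and Dlat were -0.28 ± 0.0877 and -0.23 ± 0.0711, both with an adjusted p of 0.0701. By CPM combination and propafenone tumours did not overlap for Pdk1, Pdk3, Pdpr and Dlat, all lower, where 4.88% of all genes showed such a gap. By TPM they overlapped for Dlat. These calls rest on few tumours, as do those over all genes. Without propafenone 3, propafenone 5 or combination 5, 0 of the 10 genes were called. In those fits 4, 23 and 27 of all genes tested were called, against 616 in the main fit. Without any of combination 1 to 4 Pdpr was the 1 gene called of the 10, beside 50 to 133 of all genes. Without propafenone 1 Pdk3 and Pdpr were called (2), beside 230 of all genes. Without propafenone 4 there were 6 of the 10, beside 1882 of all genes.

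Anti-PD-1 alone against IgG gave estimates in the same direction for these regulators and no call. The estimate was -0.26 ± 0.12 for Pdk1 (adjusted p = 0.637 by edgeR), -0.32 ± 0.109 for Pdk3 (adjusted p = 0.497) and -0.22 ± 0.156 for Pdpr (adjusted p = 0.808). Pdk2 stood at 0.40 ± 0.18 (adjusted p = 0.626 by edgeR). Pdha1, Pdhb and Dlat stood at -0.06 ± 0.0683, -0.04 ± 0.0877 and -0.096 ± 0.0711 (adjusted p = 0.909, 0.969 and 0.821 by edgeR). Of the 10 genes 0 were called by edgeR, by DESeq2 or by limma, where 0% of all genes passed by edgeR; 3 of the 10 (Pdk1, Pdk2 and Pdk3) had an unadjusted p under 0.05, as did 7.58% of all genes. By CPM the anti-PD-1 and IgG tumours did not overlap for Pdk3 only among the 10, lower with anti-PD-1. Of all genes, 0.498% showed such a gap downward. By TPM those groups overlapped for Pdk3.

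Propafenone moved none of the 10 genes past the threshold. Alone against IgG, adjusted p-values lay between 0.913 and 0.989 by edgeR, 0% of all genes passed, and 0 of the 10 genes and 4.75% of all genes had an unadjusted p under 0.05; the estimate for Pdk3 was -0.16 ± 0.108. Added to anti-PD-1, the estimates were -0.30 ± 0.12 for Pdk1 (adjusted p = 0.46), -0.29 ± 0.109 for Pdk3 (adjusted p = 0.446) and -0.50 ± 0.157 for Pdpr (adjusted p = 0.445 by edgeR), where 0% of all genes passed, and 3 of the 10 genes and 9.78% of all genes had an unadjusted p under 0.05. Over both backgrounds, 10 tumours against 10, Pdk3 stood at -0.22 ± 0.0767 (adjusted p = 0.3), Pdk1 at -0.18 ± 0.085 (adjusted p = 0.415) and Pdpr at -0.19 ± 0.11 (adjusted p = 0.496 by edgeR), where 0% of all genes passed, and 2 of the 10 genes and 12% of all genes had an unadjusted p under 0.05. DESeq2 and limma also called 0 of the 10 in these comparisons. Whether the effect of either agent differed with the other was tested as an interaction, and no gene of the 10 passed (adjusted p = 0.990 to 0.992 by edgeR; 0% of all genes, and 3.04% at an unadjusted p under 0.05). Pdpr was the 1 gene of the 10 with an unadjusted p under 0.05 there, 0.0104, with an estimate of -0.62 ± 0.221.

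In the combination against IgG, given as a description, the estimates were -0.72 ± 0.157 for Pdpr, -0.61 ± 0.109 for Pdk3, -0.56 ± 0.121 for Pdk1, -0.20 ± 0.0683 for Pdha1, -0.16 ± 0.0877 for Pdhb and -0.12 ± 0.071 for Dlat (log2, SE). Pdk2 stood at 0.19, Pdp2 at 0.19, Pdp1 at -0.29 and Pdk4 at 0.79. Over 14 other tools, scalings, filters and covariates the sign changed in 2 for Dlat and Pdk4. It changed in 1 for Pdhb, Pdk2 and Pdp2 and in 0 for the rest. Pdk1, Pdk3 and Pdpr, 3 of the 10, were past the threshold, beside 4.88% of all genes in either direction and 2.63% lower, and nothing is read from this count because the set was selected on this comparison. By CPM the groups did not overlap for these and for Pdha1, beside 7.21% of all genes with such a gap downward. By TPM they overlapped for Pdpr and Pdha1.

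In the anti-PD-1 comparison over both backgrounds the median log2 fold change was -0.16 over the 10 genes and -0.01 over all genes tested, of which 51.3% were lower. Of 8 genes for the rest of the complex and for lipoylation 0 were called (median -0.07); Dld, the E3 subunit, stood at -0.16 (adjusted p = 0.114 by edgeR), Pdhx, the E3-binding protein, at -0.13 (adjusted p = 0.179) and Lias, the lipoyl synthase, at -0.33 (adjusted p = 0.0819). Of 17 TCA cycle genes, 2 were called lower and 0 higher (median -0.05), Idh3g at -0.15 (adjusted p = 0.0425) and Mdh2 at -0.17 (adjusted p = 0.0472 by edgeR). In the sister complex that breaks down branched-chain amino acids, the kinase Bckdk fell by 0.20 (adjusted p = 0.0331 by edgeR) and the phosphatase Ppm1k stood at 0.33 (adjusted p = 0.159); among its 7 listed genes 1 was called lower (median -0.03).

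Among 14 genes for other routes of pyruvate, 6 were called lower and 1 higher (median -0.05). The malic enzymes Me2 and Me1, which make pyruvate from malate, fell by 0.57 (adjusted p = 0.00237) and 0.39 (adjusted p = 0.00699 by edgeR). The lactate exporter Slc16a3 fell by 0.48 (adjusted p = 0.0246), the monocarboxylate carrier Slc16a1 by 0.26 (adjusted p = 0.021) and lactate dehydrogenase A, Ldha, by 0.20 (adjusted p = 0.0271 by edgeR). The mitochondrial pyruvate carrier genes Mpc1 and Mpc2 stood at 0.15 (adjusted p = 0.161) and -0.07 (adjusted p = 0.471 by edgeR), Ldhb at 0.05 (adjusted p = 0.592) and pyruvate carboxylase, Pcx, at 0.04 (adjusted p = 0.85). Of 19 hypoxia targets tested, 9 were called lower and 0 higher (median -0.41), with the smallest p for the mitophagy receptors Bnip3l, at -0.43 (adjusted p = 0.00699), and Bnip3, at -0.56 (adjusted p = 0.0153), and for the oxidoreductase gene Ero1l, at -0.86 (adjusted p = 0.0153 by edgeR). Of 13 glycolysis genes tested, 6 were called lower and 0 higher (median -0.28), with the smallest p for Pfkm, Hk2 and Aldoc at -0.36, -0.28 and -0.43 (adjusted p = 0.00995, 0.0206 and 0.0288 by edgeR).

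The genes of fatty acid oxidation and PPAR targets had 12 estimates lower and 5 higher. The regulators of kinase expression had 6 lower and 6 higher. Of 17 genes of fatty acid oxidation and PPAR targets, 3 were called lower and 1 higher (median -0.07). Cpt2, of the carnitine shuttle, fell by 0.27 (adjusted p = 0.00836 by edgeR), and the secreted lipase inhibitor Angptl4 stood at 0.74 (adjusted p = 0.0343 by edgeR). Of 12 genes for regulators of kinase expression, 2 were called lower and 0 higher (median -0.00116): Hif1a, the oxygen-sensitive subunit of HIF-1, fell by 0.27 (adjusted p = 0.0214) and Foxo3 by 0.37 (adjusted p = 0.0237 by edgeR).

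**Figure D4:**
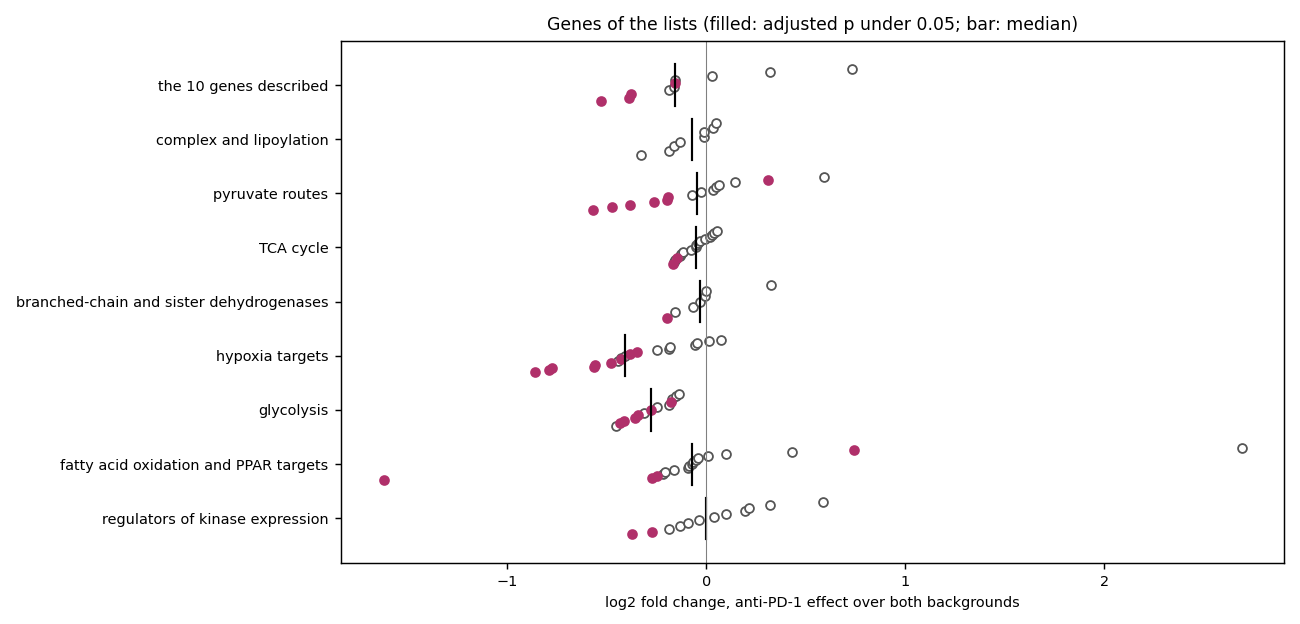
Log2 fold change for anti-PD-1 over both backgrounds (horizontal axis), 1 point per gene, for the 10 genes and 8 related lists; filled points have an adjusted p under 0.05 and vertical bars are list medians. The medians lie at -0.41 for hypoxia targets, -0.28 for glycolysis and -0.16 for the 10 genes, and near 0 for the other lists.

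Within groups, the abundant kinases rose and fell together. After the group means were removed, Pdk1 and Pdk3 correlated over the 20 tumours with Pearson r = 0.910 (permutation p = 5e-05, adjusted p = 0.00225 over 45 pairs of the 10 genes) and Spearman rho = 0.880 (permutation p = 7e-05). Without propafenone 3 and anti-PD-1 1, the tumours farthest from the median of Pdk1, r was 0.855. No other of the 45 pairs passed; the next were Pdp1 with Pdha1 and Pdk4 with Pdp1, at r = 0.714 and 0.702 (both with a permutation adjusted p of 0.0618).

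Both kinases also followed the hypoxia targets from tumour to tumour. The mean centred log2 CPM of the hypoxia targets correlated with Pdk3 at r = 0.937 (permutation p = 2e-05, adjusted p = 0.0004 over 40 relations with 4 list scores; rho = 0.895, permutation p = 5e-05; r = 0.902 without propafenone 3 and anti-PD-1 1). With Pdk1 it correlated at r = 0.877 (permutation p = 0.00013, adjusted p = 0.00173; rho = 0.854, permutation p = 0.00013; r = 0.801 without the same tumours). Pdhb followed at r = 0.707 (permutation p = 0.00313, adjusted p = 0.0209; rho = 0.705, permutation p = 0.00484; r = 0.669 without them). Pdpr gave r = 0.0622 (permutation adjusted p = 0.91). The 10 genes are not members of the hypoxia list.

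The glycolysis score was related to the same genes, at r = 0.910 with Pdk3 (permutation p = 2e-05, adjusted p = 0.0004; rho = 0.914, permutation p = 2e-05; r = 0.918 without anti-PD-1 1 and anti-PD-1 2) and r = 0.815 with Pdk1 (permutation p = 0.00053, adjusted p = 0.0053; rho = 0.836, permutation p = 0.00032; r = 0.805 without the same tumours). With Pdhb it gave r = 0.679 (permutation p = 0.0038, adjusted p = 0.0217; rho = 0.618, permutation p = 0.014 and adjusted p = 0.0802; r = 0.796 without the same tumours). The macrophage marker score gave r = 0.0406 with Pdk3, -0.00944 with Pdk1 and -0.0711 with Pdpr (permutation adjusted p of 0.928, 0.968 and 0.872). The skeletal muscle marker score gave -0.474, -0.318 and 0.446 in the same order (permutation adjusted p of 0.222, 0.527 and 0.241). As a description, on log2 CPM with a prior count of 2, r with the melanoma markers was -0.363, -0.596 and -0.331. With the endothelial markers it was -0.353, -0.525 and -0.393 in that order. With the hypoxia score as a covariate, a fit chosen after the data had been seen, the anti-PD-1 estimate over both backgrounds was -0.13 for Pdk1 (adjusted p = 0.285 by edgeR), -0.15 for Pdk3 (adjusted p = 0.107) and -0.49 for Pdpr (adjusted p = 0.0996). With the macrophage score as a covariate the estimates were -0.37, -0.40 and -0.49, with adjusted p-values of 0.477, 0.473 and 0.476 by edgeR, and 0 of all genes tested were called. With the muscle score they were -0.29, -0.26 and -0.72, with adjusted p-values of 0.118, 0.0998 and 0.0168 by edgeR.

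The level of Pdk4 was related to the skeletal muscle markers. Its level correlated with the muscle marker score at r = 0.790 over 20 tumours with group means removed (permutation p = 0.00075, adjusted p = 0.006; rho = 0.660, permutation p = 0.00412). Without anti-PD-1 2 and combination 3, the tumours farthest from the median of the score, r was 0.696. With the hypoxia score Pdk4 gave r = -0.0913 (permutation adjusted p = 0.872), and with the macrophage score 0.511 (permutation adjusted p = 0.14). As a description, on log2 CPM with a prior count of 2, r was 0.809 with the muscle, 0.717 with the T cell and 0.641 with the adipocyte markers over the same 20 tumours.

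**Figure D5:**
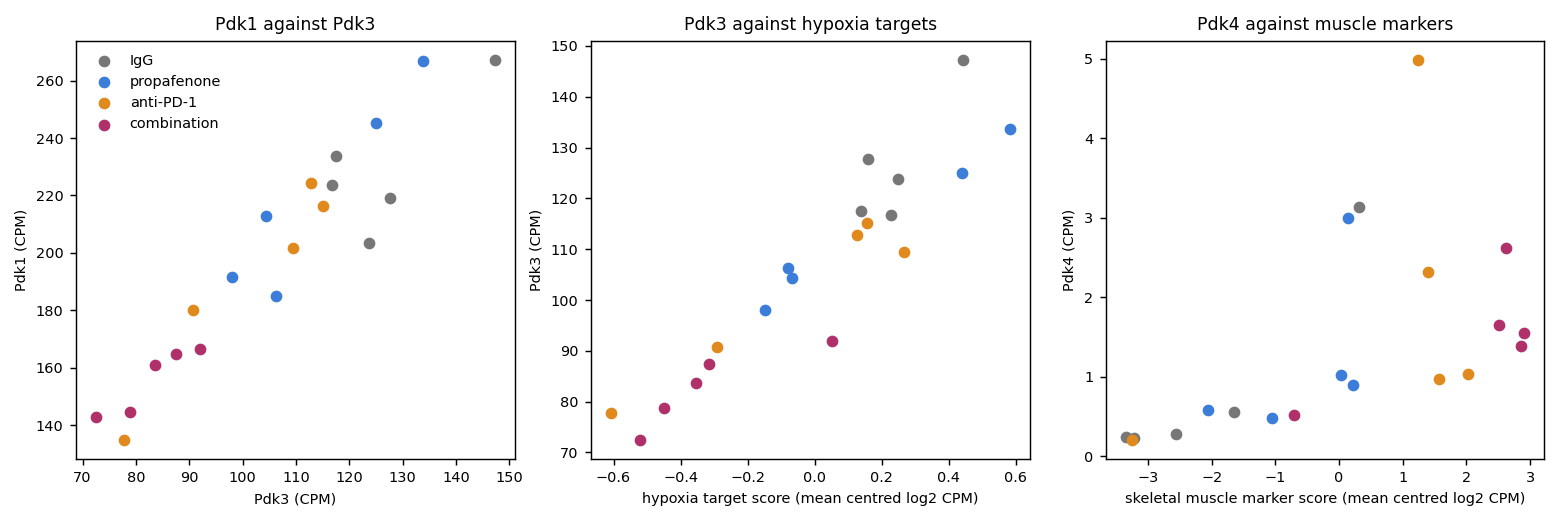
Pdk1 against Pdk3 in CPM (left), Pdk3 CPM against the hypoxia target score (middle) and Pdk4 CPM against the skeletal muscle marker score (right), 1 point per tumour coloured by group; scores are mean centred log2 CPM, and group means are not removed in the plots. Pdk1 and Pdk3 stand at 143 and 72.5 CPM in combination 5 and at 267 and 147 CPM in IgG 3, and Pdk4 stays at or below 0.278 CPM in the 4 tumours with the lowest muscle scores.

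The genes most like each kinase were ranked among 11708 genes by Pearson r over the same 20 tumours with group means removed, as a description. For Pdk3 they were the phosphatase methylesterase Ppme1 (r = 0.972), the glucose transporter Slc2a1 (0.943) and Bnip3 (0.933), and for Pdk1 they were Rraga (0.925), Rcor2 (0.923) and Bnip3 (0.911). Pdk2 was most like Ephx1 (0.862), Fam234a (0.848) and Fhdc1 (0.834), and Pdk4 most like Rab8b (0.888), Abl2 (0.867) and Lrg1 (0.864). Bnip3 was the 1 gene on more than 1 of these lists.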

How the data were processed

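Per the labels, mRNA libraries of 20 B16F10 tumours were made with a SMARTER kit. Tools listed in the submitters' processing notes are HISAT2 2.2.1, SAMtools 1.9 and FastQC, with the build GRCm38 (mm10); the counting tool, annotation and strand setting are not given in the sources used here. The authors deposited 1 matrix of expected counts and 1 of TPM over 32285 genes, with totals of 55985437 to 64514815 expected counts per tumour. TPM was used for levels. The expected counts, rounded to whole numbers, were tested with edgeR 4.0.16 in R 4.3.3 (filterByExpr, TMM, robust fit, all 20 tumours, a mean for each group, Benjamini-Hochberg adjustment over 15875 genes, threshold 0.05) and checked on simulated data. SE is that of the fitted log2 fold change. DESeq2 1.42.0, limma 3.58.1, other scalings and filters, covariates and left-out tumours were alternatives. Relations between genes used 100000 permutations within groups (smallest possible p 1e-05). Genes named were the 10 genes, preset partners, up to 3 genes per list by smallest p (1 such gene is not reported here), and 3 like genes per kinase. Members and lists were chosen with earlier results of these data known. The labels give replicate numbers without stating separate animals, so p-values measure the spread between these samples, and read sampling adds counting error. Replicate numbers were not used to pair tumours in the main fit.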

Additional observations from a re-analysis of the deposited data

Results flagged for a closer look

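Pdk4 held the values that stood furthest from their own group. IgG 2 had 3.13 CPM where the other IgG tumours had 0.232 to 0.563 CPM. Propafenone 5 had 2.998 CPM where the other propafenone tumours had 0.477 to 1.02 CPM. In each case the gap to the next tumour, as a share of the whole range of the group, passed the 95% limit of Dixon's test. The 10 genes in 4 groups made 40 such checks, of which these 2 passed, and chance alone gives about 1 in 20.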

How the results depend on the processing

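Values are the number of the 10 genes called. For anti-PD-1 over both backgrounds (4) it was 1 with the muscle marker score as a covariate (Pdpr) and 0 with the macrophage or the hypoxia score, where 861, 0 and 165 genes of all tested were called against 1325. In that comparison it was 3, without Pdha1, with DESeq2 size factors, with library totals and with no filter on low counts. The same 3 were called by limma on log2 TPM and with counts divided by 4. By DESeq2 and by limma on counts it was 5, with Dlat added. For the combination against propafenone (4) it was 2 with library totals as the scale, 2 with the muscle score, 0 with the macrophage score and 0 with the hypoxia score. In these fits 347, 805, 0 and 53 genes of all tested were called, against 616. There too it was 3, without Pdha1, with DESeq2 size factors, no filter on low counts, limma on log2 TPM or counts divided by 4. For the combination against IgG (3), described only because the set was selected on it, it was 0 with each of the 3 scores. There 0 (muscle), 0 (macrophage) and 26 (hypoxia) genes of all tested were called, against 774. These scores share variation with the treatment groups, and the causes were not tested. Leaving out 1 tumour gave 3 to 6 for anti-PD-1 over both backgrounds, 0 to 6 for the combination against propafenone and 0 to 3 for the combination against IgG (0 without IgG 3, 1 without combination 5). In the other 5 comparisons it was 0 under every setting run.

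With the replicate block the counts were 3, 4 and 3 in the order anti-PD-1, combination against propafenone, combination against IgG; Pdha1 was no longer called in the first, and Pdhb took its place in the second. On average same-numbered tumours did not deviate together (mean r -0.00694 over 30 pairs, from -0.41 to 0.369). Among tumours of other groups, 7 of 20 tumours correlated best with one of their own number, a count not tested against chance. Without the 5 libraries rich in Hbb-bs the counts were 4, 3 and 4 in that order. Pdk3 was no longer called in the combination against propafenone, and Pdha1 was added in the combination against IgG.

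Counts over all genes moved more. Leaving out 1 tumour gave 477 to 2273 for anti-PD-1, 4 to 1882 for the combination against propafenone (main 616) and 5 to 709 for the combination against IgG (main 774). For the last, DESeq2 gave 1423, a fit on its own groups 1786, no filter on low counts 463 and library totals 480 (368 higher and 112 lower, against 356 and 418). For the combination against propafenone they gave 1466, 1069, 335 and 347 (258 higher and 89 lower, against 265 and 351). Depth limits Pdk4 most, at 11 to 300 counts a tumour. On a CPM scale Pdk1, not Pdk3, held the largest share of the kinases.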
